A study of Homo sapiens with 24 samples.

Results

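Total RNA of A549 cells transfected with an siRNA against RICTOR (siRIC) was compared with total RNA of A549 cells transfected with a control siRNA (siNT), across all expressed genes. A549 is a human lung adenocarcinoma cell line that carries mutant KEAP1. The comparison used 6 of the 24 libraries of the study, 3 with siRIC and 3 with siNT, chosen by line, siRNA and RNA fraction as the labels give them. The other libraries were polysomal RNA of A549 cells under the same siRNA labels and both fractions of H460, a human large cell lung carcinoma line. Both groups were grown in RPMI medium with serum, and the siRIC group carried a transient knockdown of RICTOR, which the labels call a genotype beside a wild-type control. The siRNA sequences, their number, the dose and the time after transfection were not given in the labels. The labels name each replicate a batch, and whether replicates were separate cultures is not stated. The p-values therefore cover the spread between these libraries, which may be technical and is partly pooled over genes.

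RICTOR is the scaffold subunit that defines mTOR complex 2 (mTORC2), the form of the mTOR kinase that phosphorylates the hydrophobic motif of AKT, SGK and several protein kinase C enzymes. AKT in turn phosphorylates FOXO transcription factors, which keeps them out of the nucleus, while SGK phosphorylates NDRG1. In A549 cells the ERK cascade and the transcription factor NRF2 are known to be active, the first driving DUSP and Sprouty feedback genes and the second driving aldo-keto reductases, glutathione enzymes and the pentose phosphate pathway.

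The 6 libraries held 21041990 to 26550160 estimated counts, and mitochondrially encoded genes took 14.4% to 18.0% of them with siRIC and 15.1% to 17.7% with siNT. Levels are given as CPM, a library's counts scaled to a fixed total, after TMM scaling, in the order of replicates 1, 2 and 3, and are not corrected for transcript length. The keratins KRT8 and KRT18 averaged 2900.1 and 2984 CPM with siRIC and 4563 and 4630.05 CPM with siNT. KRT19, another keratin of simple epithelia, averaged 0.234 CPM with siRIC and 0.184 CPM with siNT, and the epithelial marker CLDN7 0.516 and 0.707 CPM. The surfactant genes SFTPA1 and SFTPB, which mark alveolar type II cells, were at 0 in all 6 libraries. ABCA3, also a marker of these cells, averaged 33.6 CPM with siRIC and 31.7 CPM with siNT. The summed level of 9 epithelial markers ran from 4977 to 6805 CPM with siRIC and from 8325 to 10204 CPM with siNT, with most of the sum in KRT8 and KRT18. Immune markers CD3E, AIF1, MS4A1 and NKG7 and endothelial markers CDH5, KDR, CLDN5 and EMCN were at 0 throughout. The sum of 10 immune markers, mostly the lysosomal gene CD68, was 31.7 to 37.6 CPM with siRIC and 45.2 to 50.5 CPM with siNT, and the sum of 9 fibroblast markers was 8.14 to 12.4 CPM with siRIC and 8.02 to 11.9 CPM with siNT. The part of these marker sums in the results below was not tested. In such bulk RNA, fewer cells of a type and less RNA per cell cannot be told apart.

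RICTOR (ENSG00000164327, GRCh38 chromosome 5, 38937920 to 39074399) was measured first as a check of the labels. Its level was 13.4, 10.9 and 13.6 CPM in siRIC libraries, against 34.1, 28.4 and 36.4 CPM in siNT libraries. Every siRIC library lay well below every siNT library, and the mean was 12.7 ± 1.49 CPM with siRIC and 33 ± 4.16 CPM with siNT (SD, n = 3 each). The log2 fold change of siRIC over siNT was −1.38 ± 0.13 (SE, adjusted p = 0.00788, edgeR quasi-likelihood test with Benjamini-Hochberg adjustment over all genes tested), which is 0.385 of the siNT level. The other subunits of mTORC2 and its assembly factors did not pass the test. PRR5, a subunit also called protor-1, had 15.3, 20.4 and 17.9 CPM with siRIC and 22, 23 and 22.4 CPM with siNT, without overlap of the groups, and a log2 fold change of −0.33 ± 0.12 (adjusted p = 0.289, and 0.00498 with the replicate number as a block). DEPTOR, an inhibitor that binds both mTOR complexes, was low in both groups at 1.38, 0.64 and 1.04 CPM with siRIC and 1.73, 1.3 and 2.07 CPM with siNT. The TTT assembly factor TTI1 had 45.4, 40.2 and 48.4 CPM with siRIC and 37.3, 40.8 and 43.3 CPM with siNT. Log2 fold changes of the 8 genes other than RICTOR ran from −0.73 (DEPTOR) to 0.14 (TTI1), and none of the 8 was called.

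Downstream kinases differed little in RNA level. Of 17 AGC kinases tested, PRKCE rose and none fell, beside 0.347% and 0.667% of all genes, and with the replicate number as a block 2 were higher and 1 lower, beside 8.74% and 9.91% of all genes. PRKCE encodes protein kinase C epsilon, a substrate of mTORC2. It had 16.2, 18.6 and 18.2 CPM in siRIC libraries, against 11.5, 12 and 10.1 CPM in siNT libraries, so the groups did not overlap, and its log2 fold change was 0.65 ± 0.11, adjusted p = 0.0398 (edgeR). SGK1, whose kinase needs mTORC2 for activity, stood at 44.6, 30.9 and 47.3 CPM with siRIC and 32.8, 23.2 and 31 CPM with siNT. Its groups overlapped across replicates but it was higher with siRIC within each pair of equal number, with a log2 fold change of 0.50 ± 0.18 (adjusted p = 0.3 in the unpaired edgeR fit and 1.22e-05 with the replicate block). Among 20 FOXO target genes, BCL2L11 fell and none rose in the unpaired fit, beside 0.667% and 0.347% of all genes, with a list median of 0.06. With the block 4 of the 20 were higher and 2 lower. BCL2L11 encodes the pro-apoptotic protein BIM, and it had 13.3, 10.9 and 16.2 CPM in siRIC libraries, against 22.8, 21.6 and 27.9 CPM in siNT libraries (−0.84 ± 0.16, adjusted p = 0.0486, edgeR).

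Across 14982 genes tested, 152 (1.01%) passed an adjusted p of 0.05, of which 52 (0.347%) were higher and 100 (0.667%) were lower with siRIC. Most changes were moderate. Among the 52 rises, 31 exceeded 1.5-fold and 8 exceeded 2-fold, with a median log2 fold change of 0.70. Among the 100 falls, 78 exceeded 1.5-fold and 17 exceeded 2-fold, with a median of −0.72. Over all genes tested the median was 0.01 and the median absolute value 0.13. In all 152 genes the siRIC and siNT libraries did not overlap, as did 18% of all genes tested (8.65% higher and 9.38% lower), and every pair of libraries with equal number differed in the same direction. Protein-coding genes made up 51 of the rises and 90 of the falls.

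The count depended on how the replicate numbers were treated and on single libraries. With the replicate number as a block, 2794 genes (18.6%) passed, 1309 (8.74%) higher and 1485 (9.91%) lower, and these included all 152. The blocked fit left 2 residual degrees of freedom, so its very small adjusted p lean on spread pooled over genes. Such values, quoted throughout beside the unpaired ones, do not measure how closely the pairs of a single gene agreed. Without siNT replicate 1 no gene passed in the edgeR fit, and without siRIC replicate 1 there were 7, so every call below was lost when that siNT library was left out. Without 1 of the other 4 libraries, 38 to 84 genes passed. A fit over all 12 A549 libraries, polysomal ones included, called 50 genes, of which 49 were among the 152. The count at an unadjusted p under 0.05 was 1846.

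**Figure D1:**
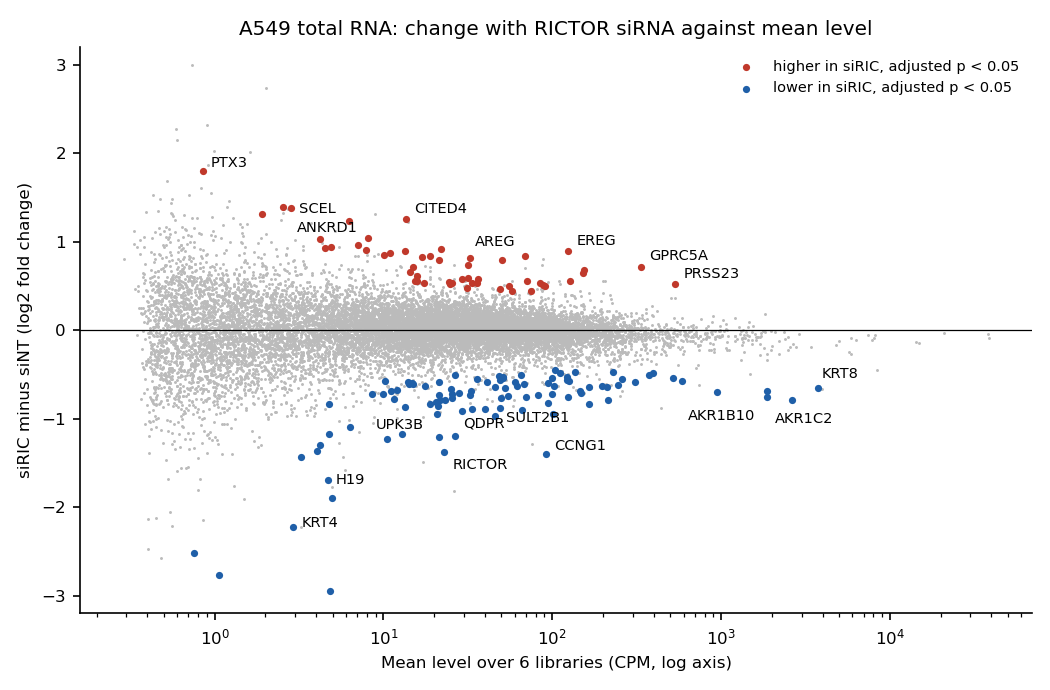
Log2 fold change of siRIC over siNT (y axis) against the mean level over 6 libraries in CPM (x axis, log scale) for each gene tested in A549 total RNA, with 2 genes outside ±3.2 not drawn. Red points are the 52 genes called higher, blue points the 100 called lower and grey points the rest, and the falls reach into the most abundant genes, with KRT8, AKR1C2 and AKR1B10 at the right.

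Ligands of the EGF receptor family and the feedback genes of the ERK cascade were among the genes that rose. Amphiregulin (AREG) and epiregulin (EREG), shed ligands of the EGF receptor that lie 56.4 kb apart on chromosome 4, rose 1.79-fold and 1.86-fold. Of 17 ERK feedback genes tested, 3 rose (SPRY2, SPRY4 and DUSP4) and none fell, against 0.347% and 0.667% of all genes, and the list median was 0.31. EREG (ENSG00000124882, chromosome 4, 74365145 to 74388749) had 148, 195 and 144 CPM in siRIC libraries, against 81.1, 103 and 77.8 CPM in siNT libraries. AREG (ENSG00000109321, chromosome 4, 74445136 to 74455005) had 88.1, 103 and 74.5 CPM in siRIC libraries, against 48, 53.3 and 47 CPM in siNT libraries. In both genes the lowest siRIC library lay above the highest siNT library, and siRIC replicate 2 was the highest of all. The log2 fold changes were 0.89 ± 0.15, adjusted p = 0.035 for EREG and 0.84 ± 0.12, adjusted p = 0.0234 for AREG (edgeR). The other ligands and receptors did not pass: NRG1, neuregulin 1, a ligand of ERBB3 and ERBB4, had 121, 149 and 134 CPM with siRIC and 89.9, 115 and 103 CPM with siNT (0.39 ± 0.12, adjusted p = 0.216, and 4.26e-06 with the replicate block). The 12 genes of this list had a median of 0.02, near that of all genes.

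SPRY2 and SPRY4 encode Sprouty proteins, inhibitors of receptor tyrosine kinase signalling that are themselves induced by ERK. SPRY2 had 15.1, 14.4 and 12.9 CPM in siRIC libraries, against 7.87, 8.1 and 7.12 CPM in siNT libraries (0.87 ± 0.12, adjusted p = 0.015). SPRY4 had 19.7, 17.7 and 17.6 CPM in siRIC libraries, against 13.5, 12 and 12.2 CPM in siNT libraries (0.55 ± 0.10, adjusted p = 0.0486). DUSP4, a nuclear phosphatase of ERK, had 195, 181 and 184 CPM in siRIC libraries, against 116, 121 and 120.0 CPM in siNT libraries (0.65 ± 0.08, adjusted p = 0.0136), all by edgeR. In these 3 genes the groups stood clear of each other and the siNT libraries were tightly spaced. DUSP6, the cytoplasmic ERK phosphatase, had 17.7, 14.5 and 15 CPM with siRIC and 11.2, 8.06 and 9.57 CPM with siNT, also without overlap, but missed the threshold at a log2 fold change of 0.71 ± 0.15 (adjusted p = 0.067, and 1.42e-05 with the replicate block). With the block, 11 of the 17 ERK feedback genes were higher and none lower, against 8.74% and 9.91% of all genes. Leaving out 1 library at a time, the highest adjusted p ran from 0.118 to 0.249 over EREG, AREG, SPRY2, SPRY4 and DUSP4.

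None of 18 immediate early transcription factors passed, although their median was 0.19. The 4 with the smallest p were KLF2, IER2, NR4A1 and FOSL2. NR4A1, an orphan nuclear receptor induced by growth factors, had 130.0, 91 and 105 CPM with siRIC and 80.2, 51.1 and 63.5 CPM with siNT (0.74 ± 0.18, adjusted p = 0.111). IER2 had 96.1, 89.6 and 77.7 CPM with siRIC and 65.8, 64.4 and 60.4 CPM with siNT (0.47 ± 0.10, adjusted p = 0.0779). KLF2, a zinc finger factor, had 9.75, 9.01 and 8.75 CPM with siRIC and 5.16, 6.53 and 5.42 CPM with siNT (0.68 ± 0.14, adjusted p = 0.0635). FOSL2, an AP-1 subunit, had 138, 147 and 161 CPM with siRIC and 104, 109 and 126 CPM with siNT (0.40 ± 0.11, adjusted p = 0.15). In all 4 genes, taken for their small p, the lowest siRIC library lay above the highest siNT library. The same held for 9 of the 18 and for 8.65% of all genes tested. With the replicate block 9 of the 18 were higher and none lower, beside 8.74% and 9.91% of all genes, with adjusted p = 3.79e-09 for NR4A1 and 2.64e-06 for IER2.

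**Figure D2:**
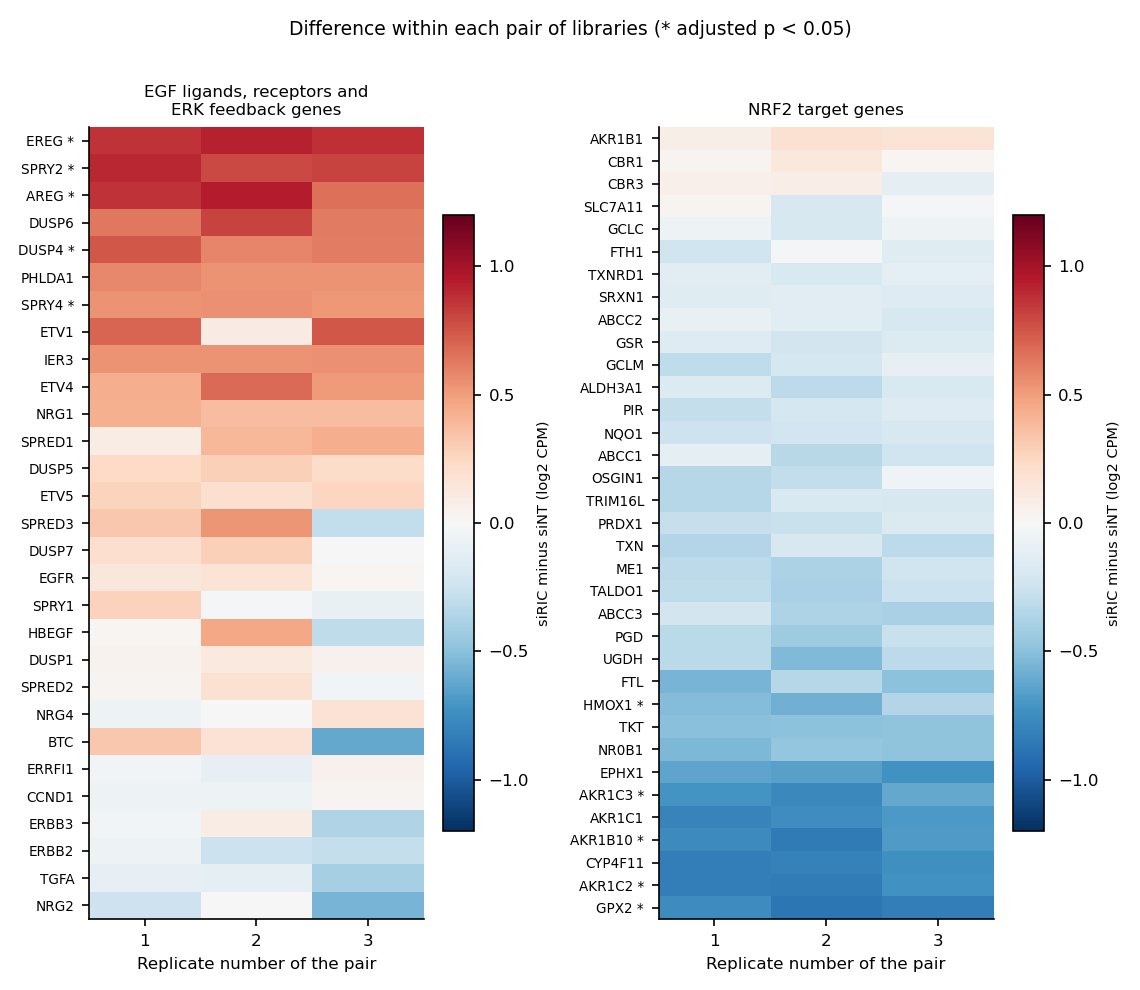
Difference in log2 CPM between the siRIC and the siNT library of equal replicate number (columns) for EGF ligands, ERBB receptors and ERK feedback genes (left) and for NRF2 target genes (right, 1 of the 36 not drawn), ordered by log2 fold change, with an asterisk at genes past an adjusted p of 0.05. Red is higher and blue lower with siRIC. EREG, SPRY2, AREG and DUSP4 are red in all 3 pairs, and GPX2, AKR1C2 and AKR1B10 blue in all 3.

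Target genes of YAP and TEAD moved in both directions. YAP is the transcriptional co-activator at the end of the Hippo pathway, and it binds DNA through TEAD factors. CCN2 and ANKRD1, both widely used reporters of YAP activity, rose, while IGFBP3, a secreted binder of insulin-like growth factors, fell, and the median of 22 such genes was 0.00. Of the 22, 2 were called higher and 1 lower, beside 0.347% and 0.667% of all genes. CCN2 (ENSG00000118523, chromosome 6, 131948176 to 131951372) had 23.8, 24.6 and 24.4 CPM in siRIC libraries, against 11.8, 14.2 and 14.7 CPM in siNT libraries (0.84 ± 0.11, adjusted p = 0.014). The 3 siRIC libraries agreed within 1 CPM and were all above the siNT libraries. ANKRD1 (ENSG00000148677, chromosome 10, 90912096 to 90921087) had 10.9, 9.93 and 12 CPM in siRIC libraries, against 4.36, 7.04 and 4.53 CPM in siNT libraries (1.04 ± 0.19, adjusted p = 0.0479). IGFBP3 had 472, 454 and 499 CPM in siRIC libraries, against 659, 755 and 709 CPM in siNT libraries (−0.57 ± 0.09, adjusted p = 0.0281), with every siRIC library below every siNT library. CCN1, the close relative of CCN2, had 67.4, 73.2 and 66.1 CPM with siRIC and 47.8, 56.1 and 51.4 CPM with siNT, without overlap (0.41 ± 0.09, adjusted p = 0.0913, and 1.35e-05 with the replicate block). With the block 7 of these 22 genes were higher and 2 lower, beside 8.74% and 9.91% of all genes, so that the share lower was near that of all genes. Without 1 library, the highest adjusted p ran from 0.092 to 0.221 over CCN2, ANKRD1 and IGFBP3.

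The promoters of 5 called genes are shown because the genes moved and the windows hold letters bound by factors named here. Each line gives the 250 bases before the start site on the gene's strand, 5′ to 3′, from RefSeq (GRCh38.p14). Capitals mark GGAATG, the TEAD motif, in ANKRD1 (chr10:90921088-90921337, minus strand) and CCN2 (chr6:131951373-131951622, minus strand). They also mark TGANTCA, a loose form of the AP-1 motif with any base at N, in ANKRD1, SCEL (chr13:77535456-77535705, plus strand) and PLAUR (chr19:43670170-43670419, minus strand). The AP-1 consensus has C or G at N, as in SCEL (TGACTCA) and PLAUR (TGAGTCA), whereas ANKRD1 has T (TGATTCA). TGACNNNGC is the core of the antioxidant response element that NRF2 binds. It is marked in SCEL, where it begins at the same base as the AP-1 letters and overlaps them, and on the reverse strand in GPX2 (chr14:64942746-64942995, minus strand).
ANKRD1: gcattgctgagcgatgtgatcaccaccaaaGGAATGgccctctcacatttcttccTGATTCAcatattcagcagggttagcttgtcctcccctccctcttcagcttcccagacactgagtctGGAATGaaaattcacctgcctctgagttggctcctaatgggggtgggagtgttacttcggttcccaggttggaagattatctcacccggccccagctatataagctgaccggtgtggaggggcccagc
CCN2: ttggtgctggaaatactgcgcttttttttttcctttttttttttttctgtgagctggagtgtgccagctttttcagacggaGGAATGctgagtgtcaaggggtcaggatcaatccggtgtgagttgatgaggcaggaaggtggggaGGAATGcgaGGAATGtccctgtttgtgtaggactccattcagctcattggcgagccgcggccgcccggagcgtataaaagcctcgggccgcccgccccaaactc
SCEL: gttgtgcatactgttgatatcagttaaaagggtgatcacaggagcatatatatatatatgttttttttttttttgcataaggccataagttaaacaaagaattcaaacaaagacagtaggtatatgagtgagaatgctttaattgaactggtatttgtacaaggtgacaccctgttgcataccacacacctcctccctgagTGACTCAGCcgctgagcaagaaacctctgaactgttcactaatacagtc
PLAUR: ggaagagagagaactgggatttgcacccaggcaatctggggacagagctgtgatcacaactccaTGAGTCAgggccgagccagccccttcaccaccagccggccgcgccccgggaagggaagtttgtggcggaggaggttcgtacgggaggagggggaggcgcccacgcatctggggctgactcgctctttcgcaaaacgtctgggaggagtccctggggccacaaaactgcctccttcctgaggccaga
GPX2: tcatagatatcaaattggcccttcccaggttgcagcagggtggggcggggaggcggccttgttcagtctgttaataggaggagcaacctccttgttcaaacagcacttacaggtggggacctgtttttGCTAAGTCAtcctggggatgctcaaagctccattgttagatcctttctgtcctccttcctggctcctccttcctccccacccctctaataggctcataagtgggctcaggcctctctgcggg
CCN2 holds 3 TEAD motifs, the first bases of which lie 169, 104 and 95 bases before the start site, and ANKRD1 holds 2 at 220 and 128 bases. The TGANTCA letters begin 195 bases before the start in ANKRD1, 49 in SCEL and 186 in PLAUR. The antioxidant response element core begins 49 bases before the start in SCEL, which rose, and 122 in GPX2, which fell.

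RefSeq windows of 300 bases, 250 before and 50 after each start site, were found for 38 of the 52 genes that rose and 76 of the 100 that fell, and both strands were searched. A match to TGANTCA in any window of the gene was present in 9 of the 38 (23.7%), in 4 of the 76 (5.26%) and in 6.97% of the 11069 tested genes with a window. Any base was allowed at N, so these shares also count matches outside the AP-1 consensus, such as that of ANKRD1. GGAATG was present in 9 of 38 (23.7%), 14 of 76 (18.4%) and 14.9% of tested genes. TGACNNNGC was present in 7 of 38 (18.4%), 13 of 76 (17.1%) and 19.6% of tested genes. ACGTG, the core of the hypoxia response element, was present in 9 of 38 (23.7%), 19 of 76 (25%) and 32.2% of tested genes. Of all 35116 windows in the table, 7.71% held TGANTCA, 14% GGAATG, 13.3% TGACNNNGC and 21.4% ACGTG. Any overlap between the TGANTCA and TGACNNNGC matches was kept in both counts. These shares describe letters in a window and not binding.

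The largest rises among called genes of at least 5 CPM also held genes outside these pathways. CITED4 and SCEL led them. CITED4, a co-activator that binds CBP and p300, had 17.2, 25.1 and 15.1 CPM in siRIC libraries, against 8.09, 9.2 and 6.69 CPM in siNT libraries (2.38-fold, 1.25 ± 0.20, adjusted p = 0.0288). SCEL, sciellin, a precursor of the cornified envelope of squamous epithelia, had 8.56, 8.19 and 9.66 CPM in siRIC libraries, against 3.47, 3.38 and 4.43 CPM in siNT libraries (2.35-fold, 1.23 ± 0.16, adjusted p = 0.014). In each gene the lowest siRIC library exceeded the highest siNT library, in CITED4 with a wide spread among siRIC libraries. MARCHF4, a membrane-bound E3 ubiquitin ligase, had 27.8, 32 and 26.1 CPM in siRIC libraries, against 15.6, 15.8 and 14 CPM in siNT libraries (0.92 ± 0.11, adjusted p = 0.0127). CDCP1, a transmembrane glycoprotein phosphorylated by SRC, had 14, 12.8 and 12.1 CPM in siRIC libraries, against 7.82, 6.33 and 7.5 CPM in siNT libraries (0.85 ± 0.13, adjusted p = 0.0242). STAMBPL1, a deubiquitinase for lysine-63-linked chains, had 22.7, 24.3 and 18.2 CPM in siRIC libraries, against 13.6, 13 and 10.2 CPM in siNT libraries (0.82 ± 0.15, adjusted p = 0.044). All 3 were higher with siRIC in each pair and did not overlap between groups. The other rises of this rank were the channel-like protein TMC5 (1.95-fold), the secreted CAP-domain protein GLIPR1 (1.88-fold), the calcium-binding membrane protein MCTP1 (1.74-fold) and AHR, described below with ARNT. Adjusted p of these by edgeR was 0.0234 for TMC5, 0.0227 for GLIPR1 and 0.0136 for MCTP1. Leaving out 1 library, the highest adjusted p over the 8 genes of this paragraph other than AHR ran from 0.092 to 0.218.

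The 4 most abundant genes that rose were PRSS23, GPRC5A, F2RL1 and DUSP4, the last described above. PRSS23, a secreted serine protease, had 660.2, 645 and 584 CPM in siRIC libraries, against 465, 433 and 421 CPM in siNT libraries (0.52 ± 0.09, adjusted p = 0.0425). GPRC5A, an orphan receptor induced by retinoic acid, had 436, 399.7 and 413 CPM in siRIC libraries, against 251, 250.4 and 257 CPM in siNT libraries (0.72 ± 0.08, adjusted p = 0.0127). F2RL1, the protease-activated receptor PAR2, had 195, 189 and 183 CPM in siRIC libraries, against 125, 111 and 119 CPM in siNT libraries (0.68 ± 0.09, adjusted p = 0.014). The siRIC libraries of each gene formed a group above the siNT libraries, with the siNT values of GPRC5A close together. PLAUR, the urokinase receptor, shown above for its promoter and chosen after its values were seen, had 46.7, 41.8 and 43.2 CPM in siRIC libraries, against 28.4, 28.4 and 31.2 CPM in siNT libraries (0.58 ± 0.09, adjusted p = 0.0242, edgeR).

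Inflammatory genes rose and fell. Of 18 NF-kB and inflammation genes, LIF and PTX3 rose and IL1R1 fell, beside 0.347% and 0.667% of all genes, and the median was 0.28. LIF, a cytokine of the interleukin-6 family, had 110.0, 103 and 106 CPM in siRIC libraries, against 74.4, 74.8 and 77.4 CPM in siNT libraries (0.50 ± 0.08, adjusted p = 0.0288). PTX3, a secreted pentraxin, was low, with 1.52, 1.46 and 0.995 CPM in siRIC libraries, against 0.356, 0.393 and 0.377 CPM in siNT libraries (1.80 ± 0.32, adjusted p = 0.0442). IL1R1, the signalling receptor of interleukin-1, had 49.8, 44.1 and 51.7 CPM in siRIC libraries, against 74.3, 68.9 and 82.4 CPM in siNT libraries (−0.63 ± 0.10, adjusted p = 0.0303). Groups of all 3 genes were apart. NFKB2, the precursor of the p52 subunit, had 66.2, 65.2 and 69.3 CPM with siRIC and 52.4, 52.9 and 51.6 CPM with siNT, also without overlap, at 0.36 ± 0.08 (adjusted p = 0.0857, and 6.93e-05 with the block). With the block 8 of the 18 were higher and 2 lower, beside 8.74% and 9.91% of all genes. Among 20 interferon-stimulated genes none passed by edgeR, the median was −0.08, and with the block 1 was higher and 2 were lower, shares near those of all genes. Without 1 library the highest adjusted p ran from 0.174 to 0.218 over LIF, PTX3 and IL1R1.

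The largest fall among called genes of at least 5 CPM was in CCNG1, close in size to that of RICTOR. CCNG1 (ENSG00000113328, chromosome 5, 163437571 to 163457640) encodes cyclin G1, which recruits protein phosphatase 2A to MDM2. Its level was 52.3, 54.1 and 45.1 CPM in siRIC libraries, against 142, 130.0 and 129 CPM in siNT libraries, a mean of 50.5 ± 4.79 CPM with siRIC and 134 ± 7.04 CPM with siNT (SD, n = 3 each). The highest siRIC library held 54.1 CPM and the lowest siNT library 129 CPM, and the log2 fold change was −1.40 ± 0.10, adjusted p = 0.00273 (edgeR). CDKN1A, the cell cycle inhibitor p21, also fell, with 53, 59.97 and 48.6 CPM in siRIC libraries, against 78.4, 90.2 and 77.9 CPM in siNT libraries (−0.61 ± 0.11, adjusted p = 0.0427). For each gene every siRIC library lay below every siNT library. Without 1 library, adjusted p reached 0.0503 for CCNG1 and 0.218 for CDKN1A. They were the 2 genes called lower among 28 p53 target genes, and none was called higher, beside 0.667% and 0.347% of all genes. The list median was −0.14. With the replicate block 10 of the 28 were lower and 2 higher, beside 9.91% and 8.74% of all genes.

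Among epithelial structure genes, KRT8, KRT4 and UPK3B fell and SCEL rose. These were the 4 genes called of 20 keratins and cornified envelope genes tested, against 1.01% of all genes, and the list median was 0.01. With the replicate block 1 was higher and 7 were lower, against 8.74% and 9.91% of all genes. The epithelial marker sum that holds KRT8 was lower in the siRIC libraries, as given above. KRT8 (ENSG00000170421, chromosome 12, 52897191 to 52949860), the type II keratin of simple epithelia, was among the most abundant genes that fell, with 2875, 2553 and 3273 CPM in siRIC libraries, against 4520, 4146 and 5025 CPM in siNT libraries (−0.65 ± 0.12, adjusted p = 0.0469). Its partner KRT18 had 3192, 2364 and 3397 CPM with siRIC and 4840, 4076 and 4974 CPM with siNT, without overlap (−0.63 ± 0.15, adjusted p = 0.0956, and 5.78e-09 with the replicate block). KRT4 (ENSG00000170477), a keratin of stratified mucosa encoded 83.1 kb from KRT8, was low, with 1.15, 1.1 and 0.829 CPM in siRIC libraries, against 4.27, 4.84 and 5.33 CPM in siNT libraries (−2.23 ± 0.22, adjusted p = 0.00788). UPK3B (ENSG00000243566, chromosome 7, 76510552 to 76516522), a uroplakin of urothelium and mesothelium, had 14.4, 13.1 and 11 CPM in siRIC libraries, against 29.7, 30.9 and 28.1 CPM in siNT libraries (−1.21 ± 0.12, adjusted p = 0.00788). In each of KRT8, KRT4 and UPK3B every siRIC library lay below every siNT library, and in KRT4 the siNT libraries were over 3 times the siRIC ones. E-cadherin, CDH1, varied more between replicates than between siRNAs, with 76.7, 52.6 and 126 CPM with siRIC and 106, 96.2 and 193 CPM with siNT (−0.63 ± 0.33, adjusted p = 0.517, and 2.29e-07 with the block). HNF4A, a nuclear receptor of liver and gut that A549 cells express, had 43.2, 32.5 and 49.4 CPM with siRIC and 70.04, 64.3 and 91.8 CPM with siNT (−0.85 ± 0.17, adjusted p = 0.067, and 5.37e-09 with the block). Leaving out 1 library, the highest adjusted p ran from 0.0578 to 0.219 over KRT8, KRT4 and UPK3B.

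**Figure D3:**
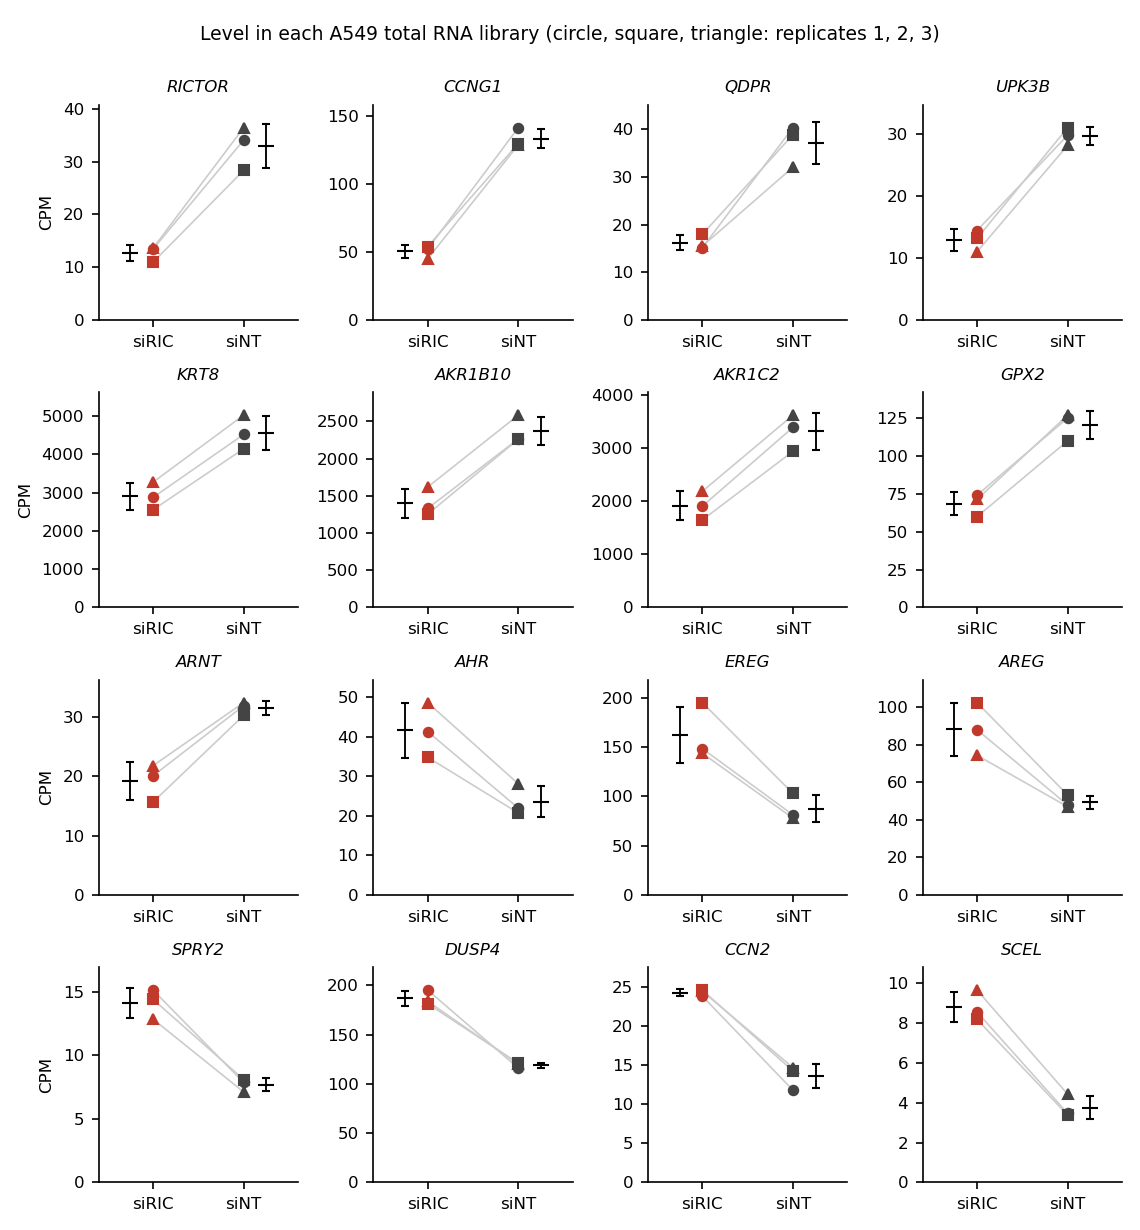
Level in CPM (y axis, from 0) of 16 genes in each A549 total RNA library, siRIC in red and siNT in dark grey, with a line between libraries of equal replicate number and the mean ± SD beside each group (n = 3). CCNG1 sits between 45.1 and 54.1 CPM with siRIC and between 129 and 142 CPM with siNT. None of the 16 genes, all of them called, overlaps between groups, as was so for all 152 called genes.

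Part of the NRF2 programme fell with siRIC. NRF2 is kept at a low level by KEAP1 in normal cells, and its targets encode enzymes that reduce carbonyls, make glutathione and regenerate NADPH. Of 36 NRF2 targets, 5 fell (GPX2, AKR1B10, AKR1C2, AKR1C3 and HMOX1) and none rose, against 0.667% and 0.347% of all genes, and the list median was −0.24 beside 0.01 for all genes. GPX2 (ENSG00000176153, chromosome 14, 64939158 to 64942745), a glutathione peroxidase, had 74.2, 59.97 and 71.4 CPM in siRIC libraries, against 125, 110.1 and 127 CPM in siNT libraries (−0.82 ± 0.11, adjusted p = 0.015). AKR1B10 (ENSG00000198074, chromosome 7, 134527567 to 134541412), an aldo-keto reductase of retinal and lipid aldehydes, had 1330, 1253 and 1617 CPM in siRIC libraries, against 2265, 2260 and 2583 CPM in siNT libraries (−0.76 ± 0.12, adjusted p = 0.0254). HMOX1, haem oxygenase 1, had 89.6, 92.4 and 96 CPM in siRIC libraries, against 128, 138 and 123 CPM in siNT libraries (−0.49 ± 0.09, adjusted p = 0.0432). For each gene all siRIC values were below all siNT values.

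The AKR1C enzymes, which reduce ketosteroids and prostaglandins, lie side by side on chromosome 10, AKR1C2 (chromosome 10, 4987775 to 5018000) 30.8 kb from AKR1C3 (chromosome 10, 5048781 to 5107686). AKR1C2 had 1909, 1650 and 2190 CPM in siRIC libraries, against 3395, 2944 and 3626 CPM in siNT libraries (−0.79 ± 0.13, adjusted p = 0.0288). AKR1C3 had 732, 606 and 825 CPM in siRIC libraries, against 1201, 1039 and 1265 CPM in siNT libraries (−0.70 ± 0.13, adjusted p = 0.0479). AKR1C1 had 181, 159 and 222 CPM with siRIC and 316, 267 and 359.7 CPM with siNT (−0.74 ± 0.15, adjusted p = 0.0595, and 9.92e-10 with the block). The AKR1C genes are near-identical in sequence, as are AKR1B10 and its pseudogene AKR1B10P1, and how estimated counts were split among them was not given, so the level of each alone is uncertain. The 10 aldo-keto reductases tested had 3 falls and no rise, beside 0.667% and 0.347% of all genes, and a median of −0.66.

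The other NRF2 targets did not pass in the unpaired fit. NQO1, a quinone reductase often used to read NRF2 activity, had 1052, 1021 and 994 CPM with siRIC and 1252, 1198 and 1138 CPM with siNT (−0.23 ± 0.08, adjusted p = 0.317), so its groups were apart but close. With the replicate block 31 of the 36 targets were lower and 1 higher, NQO1 among the lower ones (adjusted p = 0.000432), against 9.91% and 8.74% of all genes. Other enzymes of detoxification included SULT2B1 (ENSG00000088002), the sulfotransferase of cholesterol, which fell to 36.4, 27.5 and 29.7 CPM in siRIC libraries, against 66.1, 58.5 and 58.7 CPM in siNT libraries (−0.97 ± 0.12, adjusted p = 0.0133), and MGST1, a microsomal glutathione transferase, at 321, 283 and 321 CPM in siRIC libraries, against 434, 415 and 463 CPM in siNT libraries (−0.50 ± 0.09, adjusted p = 0.0479). They were the 2 genes called among 24 phase I and II genes, beside 0.667% of all genes lower and 0.347% higher, and the list median was −0.30. With the block 14 of the 24 were lower and none higher, beside 9.91% and 8.74% of all genes. The fatty acid hydroxylases CYP4F3 and CYP4F11 had 11.4, 9.88 and 13.3 CPM with siRIC and 20.8, 17.7 and 30.1 CPM with siNT for CYP4F3 and 35.7, 40.5 and 54.1 CPM with siRIC and 63.6, 71.6 and 90.4 CPM with siNT for CYP4F11. Neither passed (adjusted p = 0.0617 for CYP4F3 and 0.0842 for CYP4F11), while with the block they did (1.21e-07 for CYP4F3 and 3.79e-09 for CYP4F11). CYP4F11, also on the NRF2 list, had a log2 fold change of −0.79 ± 0.17, close in size to that of AKR1C2. Without 1 library the highest adjusted p over GPX2, AKR1B10, AKR1C2, AKR1C3, HMOX1, SULT2B1 and MGST1 ran from 0.0918 to 0.23.

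Carbohydrate pathways that share NRF2 targets had small negative differences and no call in the unpaired edgeR fit. The median was −0.23 over 7 pentose phosphate genes and −0.22 over 22 genes of glycolysis and glucose transport, and with the replicate block 4 of the 7 and 14 of the 22 were lower, beside 9.91% of all genes, with 1 higher in each list. TKT, transketolase, had 1303, 1094 and 1325 CPM with siRIC and 1841, 1542 and 1857 CPM with siNT (−0.49 ± 0.11, adjusted p = 0.0965, and 3.22e-08 with the block). GPI, glucose-6-phosphate isomerase, had 607, 559 and 645 CPM with siRIC and 786, 826 and 818 CPM with siNT (−0.42 ± 0.09, adjusted p = 0.0715, and 1.91e-06 with the block). ENO1, enolase 1, had 1947, 1978 and 2068 CPM with siRIC and 2345, 2432 and 2438 CPM with siNT (−0.27 ± 0.08, adjusted p = 0.219, and 5.55e-05 with the block). Groups of TKT, GPI and ENO1 did not overlap. Lower without overlap were 4 of the 7 pentose phosphate genes, 11 of the 22 of glycolysis and glucose transport, and 9.38% of all genes.

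ARNT and AHR, which pair with each other to bind xenobiotic response elements, moved in opposite directions. ARNT (ENSG00000143437, chromosome 1, 150809713 to 150876599), the shared dimer partner of HIF1A, EPAS1 and AHR, fell to 20.1, 15.6 and 21.8 CPM in siRIC libraries, against 31.9, 30.2 and 32.4 CPM in siNT libraries (−0.72 ± 0.13, adjusted p = 0.0425). AHR (ENSG00000106546, chromosome 7, 17298652 to 17346147), the dioxin receptor, rose to 41.3, 34.8 and 48.6 CPM in siRIC libraries, against 22, 20.7 and 28.1 CPM in siNT libraries (0.82 ± 0.15, adjusted p = 0.0479). Neither gene overlapped between groups. HIF1A had 129, 116 and 165 CPM with siRIC and 140.1, 136 and 179.8 CPM with siNT, with overlapping groups (−0.15 ± 0.15, adjusted p = 0.782). It was lower with siRIC in each pair, by −0.16 ± 0.05 in the blocked fit (adjusted p = 0.0195). EPAS1, which encodes HIF-2α, had 554, 575 and 585 CPM with siRIC and 428, 459 and 449 CPM with siNT, without overlap (0.36 ± 0.08, adjusted p = 0.0937, and 3.45e-06 with the block). Without 1 library, adjusted p reached 0.183 for ARNT and 0.225 for AHR.

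Of 28 HIF target genes, NDRG1 and AK4 fell and none rose, beside 0.667% and 0.347% of all genes, and the median was −0.04. NDRG1, a gene induced by hypoxia whose protein is phosphorylated by SGK1, had 163, 147 and 153 CPM in siRIC libraries, against 229.8, 257 and 231 CPM in siNT libraries (−0.63 ± 0.09, adjusted p = 0.0204). AK4, a mitochondrial adenylate kinase, had 38.9, 40.9 and 39.2 CPM in siRIC libraries, against 56.8, 61.9 and 52.2 CPM in siNT libraries (−0.52 ± 0.09, adjusted p = 0.0425). For both, no siRIC library reached the lowest siNT library. PFKFB3, which makes the allosteric activator of phosphofructokinase, had 156, 185 and 183 CPM with siRIC and 227, 302 and 276 CPM with siNT (−0.62 ± 0.12, adjusted p = 0.0598, and 1.57e-08 with the block). BNIP3L, a mitophagy receptor, had 83.3, 75.8 and 76.4 CPM with siRIC and 109.9, 107 and 98.5 CPM with siNT (−0.42 ± 0.09, adjusted p = 0.0706, and 4.01e-06 with the block). With the block 11 of the 28 were lower and 2 higher, beside 9.91% and 8.74% of all genes. None of 8 AHR targets passed in the unpaired fit, and 4 were lower with the block. Without 1 library the highest adjusted p was 0.118 for NDRG1 and 0.219 for AK4.

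The genes QDPR, ACSS1, SLC25A22, HPRT1, ATP9A and ASPH also fell. QDPR (ENSG00000151552, chromosome 4, 17486395 to 17512090), which regenerates tetrahydrobiopterin, had 15.2, 18 and 15.5 CPM in siRIC libraries, against 40.4, 38.9 and 32.1 CPM in siNT libraries (−1.19 ± 0.12, adjusted p = 0.00788). ACSS1, the mitochondrial acetyl-CoA synthetase, had 12.7, 14.1 and 15.5 CPM in siRIC libraries, against 25.4, 26.7 and 29.7 CPM in siNT libraries (−0.95 ± 0.11, adjusted p = 0.0127). SLC25A22, a mitochondrial glutamate carrier, had 19, 23.5 and 18.7 CPM in siRIC libraries, against 36.5, 43.8 and 35 CPM in siNT libraries (−0.91 ± 0.13, adjusted p = 0.0178). In each the siRIC libraries stayed below the siNT libraries by a margin wider than the spread within either group. HPRT1 (ENSG00000165704), the purine salvage enzyme often used to normalize PCR assays, had 44.2, 49.9 and 44.4 CPM in siRIC libraries, against 89.95, 92.8 and 75.5 CPM in siNT libraries (−0.90 ± 0.11, adjusted p = 0.0127). ATP9A, a phospholipid flippase, had 29.6, 23.5 and 30.8 CPM in siRIC libraries, against 51.4, 45.3 and 59.5 CPM in siNT libraries (−0.89 ± 0.13, adjusted p = 0.0242). ASPH, an aspartate hydroxylase of the endoplasmic reticulum, had 1416, 1348 and 1540 CPM in siRIC libraries, against 2179, 2218 and 2539 CPM in siNT libraries (−0.69 ± 0.10, adjusted p = 0.0221). All 6 genes were lower with siRIC in each of 3 pairs. Without 1 library the highest adjusted p over them ran from 0.0701 to 0.149.

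Other genes that fell had varied roles. SFRP4, a secreted antagonist of Wnt, had 7.73, 7.5 and 8.54 CPM in siRIC libraries, against 15.7, 18 and 20.2 CPM in siNT libraries (−1.18 ± 0.13, adjusted p = 0.0104). UNC93B1, which carries nucleic-acid-sensing Toll-like receptors to endosomes, had 65.7, 67.6 and 74 CPM in siRIC libraries, against 135, 124 and 141 CPM in siNT libraries (−0.95 ± 0.09, adjusted p = 0.00788). HR, the hairless co-repressor, had 7.41, 5.17 and 6.22 CPM in siRIC libraries, against 16, 12.3 and 15.6 CPM in siNT libraries (−1.22 ± 0.16, adjusted p = 0.015). These groups were apart as well. The last of this rank were MDGA1, a membrane-anchored immunoglobulin-domain protein (−1.10 ± 0.19, adjusted p = 0.0386), and the orphan receptor GPRC5B (−0.89 ± 0.16, adjusted p = 0.044). Of 19 noncoding RNAs on a list of nuclear and abundant transcripts, H19, the imprinted RNA expressed from the maternal allele, fell to 1.93, 2.33 and 2.36 CPM in siRIC libraries, against 7.42, 8.49 and 5.47 CPM in siNT libraries (−1.69 ± 0.20, adjusted p = 0.0133). TPM4, a tropomyosin, was the sole gene called among 22 SRF and actin genes, with 324, 352 and 317 CPM in siRIC libraries, against 471, 481 and 432 CPM in siNT libraries (−0.48 ± 0.09, adjusted p = 0.0479). Of 16 markers of epithelial to mesenchymal transition, MMP14, a membrane-bound collagenase, rose to 6.26, 5.58 and 5.97 CPM in siRIC libraries, against 2.89, 2.79 and 3.72 CPM in siNT libraries (0.92 ± 0.17, adjusted p = 0.0476) and none fell. H19, TPM4 and MMP14 were each the only call on their list, beside 0.347% of all genes higher and 0.667% lower. The list medians were 0.01 (noncoding), −0.01 (SRF and actin) and −0.03 (transition markers). With the block 1, 3 and 4 members of these lists were higher and 4, 5 and 2 lower, in that order, beside 8.74% and 9.91% of all genes. Without 1 library the highest adjusted p over the 8 genes of this paragraph ran from 0.0701 to 0.265.

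**Figure D4:**
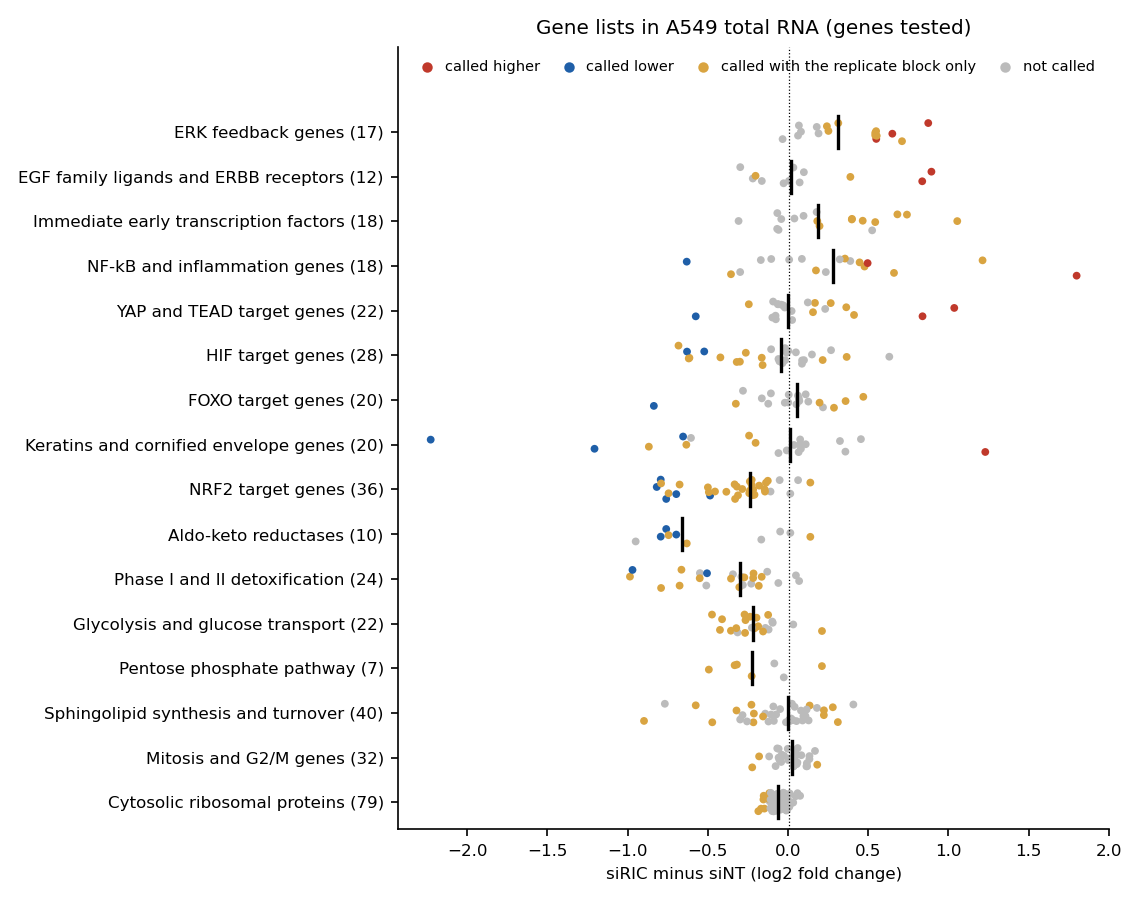
Log2 fold change of siRIC over siNT (x axis) of each tested gene of 16 lists (rows, number tested in brackets), with a black bar at the list median and a dotted line at the median of all genes. Red and blue points passed an adjusted p of 0.05 in the unpaired fit, ochre points passed with the replicate block alone, and grey points passed neither. The medians of the aldo-keto reductases (−0.66) and ERK feedback genes (0.31) lie farthest to the left and to the right of the 16.

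Many large programmes held no gene past the threshold in the unpaired edgeR fit. Their counts with the replicate block stand beside 8.74% of all genes higher and 9.91% lower. The median over cytosolic ribosomal protein genes was −0.06 (79 tested), with a range of −0.18 to 0.08, and 7 were lower with the block, a share near that of all genes. Nuclear genes of oxidative phosphorylation had a median of −0.06 over 75 genes, with 15 lower with the block. Mitosis genes (0.03 over 32) and G1/S genes (−0.08 over 32) differed little in median. With the block 1 mitosis gene was higher and 2 were lower, and 2 G1/S genes were higher and 12 of the 32 lower, among them PCNA, the sliding clamp of replication, at 236, 215 and 232 CPM with siRIC and 282, 278 and 269 CPM with siNT (−0.28 ± 0.08, adjusted p = 0.204, and 0.00016 with the block). Sphingolipid genes had a median of −0.00 over 40 genes, with 5 higher and 8 lower with the block. Of these, the ceramide synthase CERS1, whose transcript overlaps that of GDF1 and may share its reads, had 5.06, 6.04 and 5.31 CPM with siRIC and 8.67, 8.45 and 7.31 CPM with siNT (−0.58 ± 0.14, adjusted p = 0.112, and 0.00371 with the block). Cholesterol synthesis genes had a median of −0.10 over 25, and with the block 9 were lower and none higher. HMGCS1, the HMG-CoA synthase, was at 97.4, 95.4 and 95.3 CPM with siRIC and 110.0, 123 and 113 CPM with siNT (−0.26 ± 0.08, adjusted p = 0.238, and 0.000759 with the block). Genes of the ATF4 stress response had a median of 0.08 over 22, with 7 higher and 2 lower with the block. CHAC1, a glutathione-degrading ATF4 target, had 28, 24.2 and 24.3 CPM with siRIC and 19.8, 13 and 18.2 CPM with siNT (0.58 ± 0.15, adjusted p = 0.143, and 4.77e-05 with the block). TGF-beta targets had a median of −0.14 over 19, with 2 higher and 7 lower with the block.

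Polysomal RNA carried the same siRNA and replicate labels as total RNA, so both were set side by side. A difference between the fractions, tested as an interaction over the 12 A549 libraries, was found for 0 of 15396 genes by edgeR, with 177 at an unadjusted p under 0.05 and 1 gene by DESeq2. Those 177 are fewer than the 5% of genes that would pass without any difference, so the lack of calls does not show that the fractions were alike. Without 1 library the unadjusted count ran from 154 to 762, the highest without siRIC polysomal replicate 1, and the reason was not tested. Polysomal RNA had 104 called genes (0.676%), 34 higher (0.221%) and 70 lower (0.455%), in the same 12 libraries, where total RNA had 50, 12 higher and 38 lower. In polysomal RNA the log2 fold changes were −1.23 ± 0.16 for CCNG1, −1.49 ± 0.23 for RICTOR, −1.29 ± 0.15 for QDPR and −0.99 ± 0.14 for AKR1B10. They were 1.02 ± 0.19 for EREG, 0.91 ± 0.16 for AREG, 1.14 ± 0.21 for CITED4 and 1.73 ± 0.16 for SCEL. Over the same 12 libraries total RNA had 1.23 ± 0.16 for SCEL. GPRC5A was at 0.72 ± 0.16 in total RNA, not called over these libraries (adjusted p = 0.0798, edgeR), and 0.38 ± 0.16 in polysomal RNA. The differences of total minus polysomal RNA, −0.50 ± 0.23 for SCEL and 0.33 ± 0.23 for GPRC5A, did not pass (adjusted p = 1.00 for each, edgeR).

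H460 cells carried the same siRNA labels, and their total RNA was set beside that of A549. It had 9 called genes (0.0559% of 16100 tested in a fit of the 12 total RNA libraries), all lower with siRIC. Of them, 7 were also called lower in A549, namely RICTOR, PSEN2, TMUB2, SLC25A22, ANXA5, IGFBP3 and ANKRD13C, of which PSEN2, TMUB2, ANXA5 and ANKRD13C were chosen after their values were seen. Of the 152 genes called in A549, 128 were measured in H460, and 103 had the same sign there, 34 of 47 rises and 69 of 81 falls, beside 58.5% of 13279 genes measured in both lines. RICTOR itself was −1.53 ± 0.13 in H460 (adjusted p = 0.000173). PSEN2, a catalytic subunit of gamma-secretase, had 15.9, 15.5 and 16.4 CPM in siRIC libraries, against 25.1, 29.1 and 28.6 CPM in siNT libraries in A549 (−0.79 ± 0.10, adjusted p = 0.0133) and a log2 fold change of −0.84 ± 0.10 in H460 (adjusted p = 0.00318). ANXA5, a phospholipid-binding annexin, had 125, 118 and 113 CPM in siRIC libraries, against 216, 212 and 207 CPM in siNT libraries in A549 (−0.83 ± 0.08, adjusted p = 0.00788) and −0.51 ± 0.08 in H460 (adjusted p = 0.0475). TMUB2, a membrane ubiquitin-like protein, was −0.71 ± 0.10 in A549 and −0.82 ± 0.10 in H460, and ANKRD13C was −0.61 ± 0.10 and −0.58 ± 0.10.

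Other genes stood further apart between the lines. CCNG1 was −1.40 ± 0.10 in A549 and −0.62 ± 0.11 in H460, AKR1B10 −0.76 ± 0.12 and −0.04 ± 0.12, AREG 0.84 ± 0.12 and 0.04 ± 0.29, and CDCP1 0.85 ± 0.13 and −0.37 ± 0.14. The difference between lines, tested as an interaction, passed for 2 genes (0.0124%), DCLK1 and IL1RAP, neither of which was called in A549 alone. With the replicate number as a block within each line it passed for 548 genes (3.4%), 261 of them with the higher value in A549 (1.62%) and 287 with the lower (1.78%). The 548 held 80 of the 152, including CCNG1 (adjusted p = 0.00479), AKR1B10 (0.000133) and CDCP1 (0.000727), and not AREG (0.0634). The 152 were chosen by their change in A549 libraries that also enter this test. A high share of them is favoured by that choice. In the unpaired fit the adjusted p was 0.243 for CCNG1 and 0.36 for AKR1B10.

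**Figure D5:**
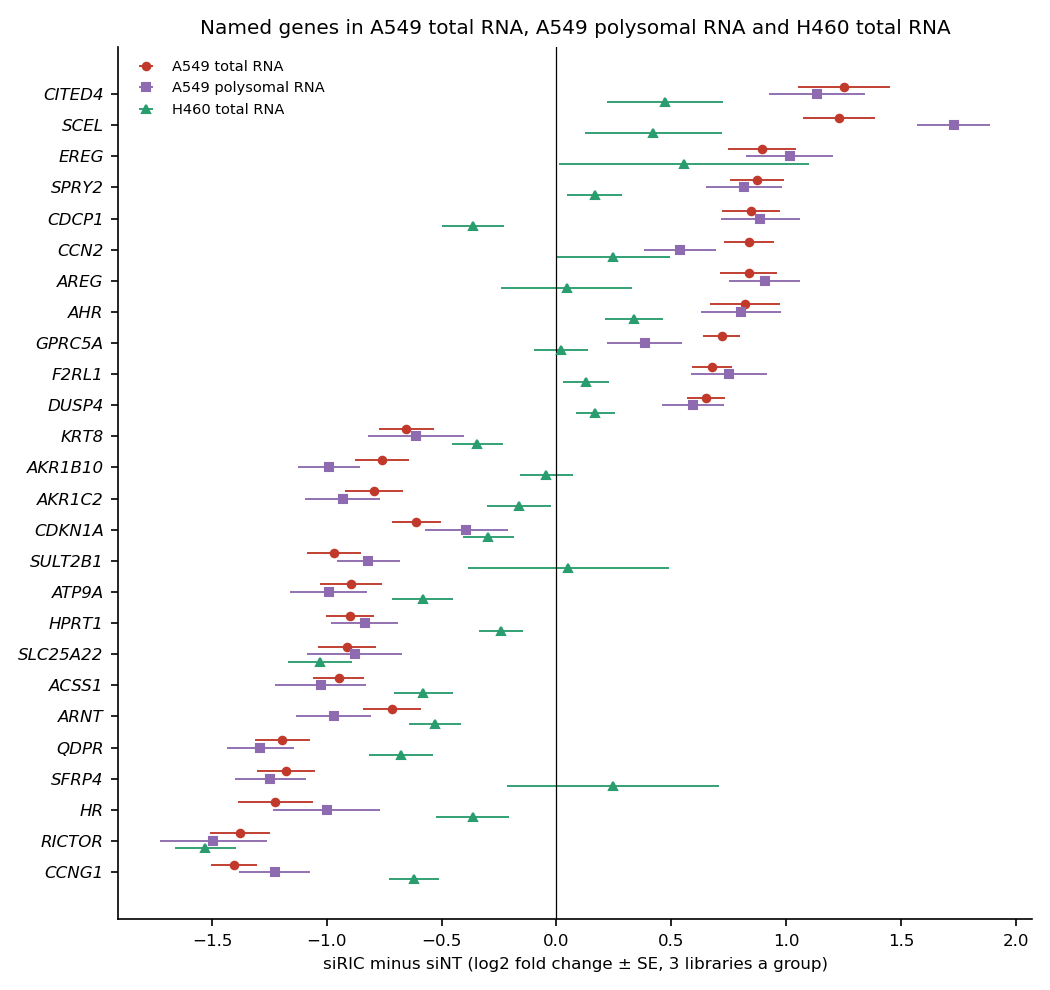
Log2 fold change of siRIC over siNT ± SE (x axis, 3 libraries a group) of 26 named genes in A549 total RNA (red circles), A549 polysomal RNA (violet squares) and H460 total RNA (green triangles). RICTOR lies between −1.53 and −1.38 in all 3, while CCNG1 lies at −1.40 in A549 total RNA and −0.62 in H460, and AKR1B10 at −0.76 and −0.04.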

How the data were processed

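Per the labels' protocols, TriPure was used to extract RNA. The molecule is labelled polyA RNA, but the protocol names a stranded kit that depletes ribosomal RNA, and the conflict could not be resolved. The submitters' processing notes name bcl2fastq 2.20 and GRCh38. The authors deposited 1 table of estimated counts from salmon, merged over samples and summed by gene, without normalization. The annotation and salmon settings are not given in the sources used here. Of 60666 gene IDs 60437 matched a symbol, and 13996 of 14982 tested genes matched a RefSeq position.

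Estimated counts were rounded to whole numbers, filtered with filterByExpr by group and scaled by TMM. The 6 A549 total RNA libraries were tested with the quasi-likelihood functions glmQLFit and glmQLFTest of edgeR 4.0.16 (R 4.3.3), without a block, with Benjamini-Hochberg adjustment over all genes and a threshold of 0.05. This fit had 4 residual degrees of freedom, and the fit with the replicate block had 2. The SE of a log2 fold change is its absolute value divided by the square root of F. Interactions were fitted over the 12 A549 libraries and the 12 total RNA libraries, and polysomal and H460 values come from those fits. Steps were tested on counts simulated without a replicate effect. Of 100 genes changed 1.5-fold the unpaired fit called 40, and of 100 changed 2-fold it called 92. It also called 13 unchanged genes. Such counts could not check how the blocked fit handles differences between replicates.

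Replicate numbers pair the libraries because the labels give each as a batch. Deviations from group means correlated with r = 0.059, 0.370 and 0.362 between libraries of equal number and −0.365 to 0.0143 between others. Chi-square per degree of freedom between replicates was 8.82 to 35.3, above sampling noise.

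The members and the 49 gene lists were chosen with earlier results of these data known. Named genes were RICTOR, ARNT and HIF1A, then 14 rises and 14 falls, largest first, that were called, averaged 5 CPM or more, kept their sign in 3 pairs and had a standard symbol, the 4 most abundant called genes in each direction and from each list described up to 4 members by smallest p. Lists are described by counts and medians. Alternatives were DESeq2 1.42.0, its size factors, no filter, mitochondrial genes left out, all 12 A549 libraries, the replicate block and each library left out. Some genes the rule takes are named by their fold alone or only in a count, and some are not reported here.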

Additional observations from a re-analysis of the deposited data

Results flagged for a closer look

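The effect of siRIC differed between A549 and H460 total RNA for 2 genes by the edgeR interaction test over 12 libraries. DCLK1, a microtubule-associated kinase, had a difference of A549 minus H460 of 2.13 on the log2 scale (adjusted p = 0.021). Scaled over these 12 libraries, its level in A549 was 1.19, 1.64 and 1.27 CPM with siRIC and 0.212, 0.487 and 0.407 CPM with siNT. In H460 it was 13.3, 13.98 and 12.8 CPM with siRIC and 16.4, 16.1 and 15.9 CPM with siNT. DCLK1 was higher with siRIC in each A549 pair and lower in each H460 pair, at 1.87 ± 0.36 in A549 (adjusted p = 0.0512) and −0.27 ± 0.14 in H460 (adjusted p = 0.684). IL1RAP, the accessory protein of the interleukin-1 receptor, had a difference of 1.54 (adjusted p = 0.00889). Its level in A549 was 7.64, 7.58 and 8.05 CPM with siRIC and 5.3, 6.77 and 6.6 CPM with siNT. In H460 it was 20.1, 23.4 and 16.7 CPM with siRIC and 45.4, 49.9 and 45.5 CPM with siNT. It was higher with siRIC in each A549 pair and lower in each H460 pair. Its log2 fold change was 0.32 ± 0.14 in A549 (adjusted p = 0.386) and −1.22 ± 0.12 in H460 (adjusted p = 0.000444). With the replicate block within each line both differences passed, with adjusted p = 0.000799 for DCLK1 and 0.000133 for IL1RAP.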

How the results depend on the processing

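The count of 152 called genes stayed at 153 with DESeq2 size factors and 156 without mitochondrial genes. It was 399 by DESeq2, 404 without the filter, 50 with all 12 A549 libraries, 2794 with the replicate block and 258 with the block over 12 libraries. Leaving out 1 library gave 0 to 84 genes. Leaving out 1 pair in the fit with the replicate block, an alternative chosen after seeing the data, gave 2153, 2818 and 1478. The share of calls that were higher was 34.2%, and it was 46.9% with the block and 24% with all 12 libraries. For total minus polysomal RNA the count of 0 became 1 by DESeq2 and 59 without the filter, stayed 0 with the replicate block (346 at an unadjusted p under 0.05), and was 0 to 2 without 1 library. For A549 minus H460 the count of 2 became 50 by DESeq2, 161 without the filter and 548 with the replicate block within lines, and was 1 to 3 without 1 library. The causes were not tested. Of the 112 named genes none changed direction under these alternatives. Of those called, 39 missed the threshold with all 12 A549 libraries, 69 without siNT replicate 1, 64 without siRIC replicate 1 and 20 to 41 without 1 of the others, while the replicate block added 40. Over all genes the spread between replicate libraries was above sampling noise, and how far depth limits the precision of low genes such as PTX3 was not tested.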

Other observations

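Called genes outside the rule for named genes, chosen after their values were seen, included further genes of mitochondrial proteins. COX15, which makes haem A for cytochrome oxidase, had 38.8, 40.7 and 43.1 CPM in siRIC libraries, against 63.6, 66.9 and 62.2 CPM in siNT libraries (−0.65 ± 0.08, adjusted p = 0.014, edgeR). SUCLA2, a subunit of succinyl-CoA synthetase, had 16.7, 19.4 and 20.6 CPM in siRIC libraries, against 31.4, 32 and 33.5 CPM in siNT libraries (−0.77 ± 0.10, adjusted p = 0.015). UCP2, a carrier of the inner membrane, had 138, 131 and 121 CPM in siRIC libraries, against 208, 219 and 179 CPM in siNT libraries (−0.64 ± 0.10, adjusted p = 0.0301). In each of them no siRIC library reached the lowest siNT library. JAG2, a ligand of Notch receptors, had 13.2, 14.6 and 16.8 CPM in siRIC libraries, against 24.8, 29.9 and 26.3 CPM in siNT libraries (−0.86 ± 0.12, adjusted p = 0.0194). NBN, a subunit of the MRN complex that senses DNA breaks, had 64.5, 54.9 and 65.6 CPM in siRIC libraries, against 106, 101 and 100.4 CPM in siNT libraries (−0.73 ± 0.09, adjusted p = 0.014). Among the rises were 2 secreted signals and a small GTPase. INHBA, the subunit of activin A, had 18.4, 17.4 and 21.6 CPM in siRIC libraries, against 12, 12.3 and 13.2 CPM in siNT libraries (0.61 ± 0.11, adjusted p = 0.0479). STC1, stanniocalcin 1, had 6.26, 5.22 and 5.39 CPM in siRIC libraries, against 2.84, 2.28 and 3.16 CPM in siNT libraries (1.03 ± 0.18, adjusted p = 0.0429). RHOB had 145, 166 and 143 CPM in siRIC libraries, against 102, 109 and 97.4 CPM in siNT libraries (0.56 ± 0.10, adjusted p = 0.0386). Over these 8 genes the highest adjusted p without 1 library ran from 0.092 to 0.225.

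The highest log2 fold change of all genes tested belonged to SULT1A4, a sulfotransferase gene with a near-identical copy, SULT1A3, so that its own counts are uncertain. Its level was 0.782, 21.3 and 28.7 CPM in siRIC libraries, against 0.356, 0.00 and 0.707 CPM in siNT libraries. The siRIC libraries 2 and 3 stood far above the first. The log2 fold change of 5.64 ± 1.23 missed the threshold (adjusted p = 0.0813, and 2.07e-08 with the replicate block). That blocked value was small although the pairs of this gene differed widely, so it does not measure how well they agreed. In polysomal RNA the log2 fold change was −0.68 ± 1.47.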
